A study of Rattus norvegicus with 6 samples.

Results

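The colony-stimulating factors are secreted proteins that keep myeloid cells alive and set their numbers, and 8 rat genes encode the group followed here. They are the ligands Csf1, Il34, Csf2 and Csf3 and the receptor genes Csf1r, Csf2ra, Csf2rb and Csf3r. They were taken by gene symbol from a table of raw counts that holds 29884 genes, and all 8 were found. Messenger RNA had been sequenced in 6 libraries of sciatic nerve from wild type rats of the chronic constriction injury (CCI) model, where loose ties on the nerve cause lasting damage and pain. In 3 libraries the injury had been followed by PLLA-PCL-RVC treatment, which is a nerve guide of piezoelectric polymer loaded with the local anaesthetic ropivacaine. The other 3 came from untreated nerves with the same injury, and no uninjured nerve was analysed here. Strain, age, sex and time after injury are not given in the labels, and neither is whether each library is 1 animal, so any p-value here reflects only library-to-library spread, which may be technical. The polymer and the drug were given together, so their parts cannot be told apart.

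CSF1 and IL-34 are unrelated in sequence but bind the same receptor tyrosine kinase, CSF1R, on which macrophages depend for survival. CSF2 (GM-CSF) binds a receptor made of a specific alpha chain, Csf2ra, and the beta common chain, Csf2rb, which the receptors for IL-3 and IL-5 also use and which signals through JAK2 and STAT5. CSF3 (G-CSF) binds CSF3R, the main receptor of neutrophils for growth and release from bone marrow, and signals mainly through STAT3. In injured nerve, macrophages that enter from blood or reside in the tissue clear myelin debris, and CSF1 made by injured sensory neurons is known to act on microglia in the spinal cord. PU.1, the product of Spi1, is the lineage factor that switches on the receptor genes in myeloid cells.

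Promoter windows were in the RefSeq table of the GRCr8 build for 4 of the 8 members, and these 4 are shown. Of these genes 3 encode receptors, which were lower in the treated nerves to different extents. The fourth, the ligand Csf2, was close to silent. Each window is the 250 bases before the annotated start, on the strand of the gene. Capitals mark the core GAGGAA to which PU.1 binds, or its reverse complement TTCCTC. The windows lie at chr18:56834129-56834378 (plus strand) for Csf1r, chr14:118118-118367 (minus strand) for Csf2ra, chr5:143582970-143583219 (plus strand) for Csf3r and chr10:38889674-38889923 (minus strand) for Csf2.
Csf1r: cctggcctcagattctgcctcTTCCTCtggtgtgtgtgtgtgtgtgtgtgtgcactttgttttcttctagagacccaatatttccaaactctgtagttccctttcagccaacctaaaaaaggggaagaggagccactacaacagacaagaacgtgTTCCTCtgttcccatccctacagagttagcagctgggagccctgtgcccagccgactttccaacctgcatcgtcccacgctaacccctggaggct
Csf2ra: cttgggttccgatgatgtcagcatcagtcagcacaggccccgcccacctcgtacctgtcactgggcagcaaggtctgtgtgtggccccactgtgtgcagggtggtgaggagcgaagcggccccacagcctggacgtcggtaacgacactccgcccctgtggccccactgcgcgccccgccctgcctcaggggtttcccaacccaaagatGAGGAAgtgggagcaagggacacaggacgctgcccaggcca
Csf3r: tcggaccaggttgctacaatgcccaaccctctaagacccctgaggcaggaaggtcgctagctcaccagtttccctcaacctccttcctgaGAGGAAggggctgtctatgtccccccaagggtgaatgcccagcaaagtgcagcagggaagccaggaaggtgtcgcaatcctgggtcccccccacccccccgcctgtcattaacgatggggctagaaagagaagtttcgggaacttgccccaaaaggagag
Csf2: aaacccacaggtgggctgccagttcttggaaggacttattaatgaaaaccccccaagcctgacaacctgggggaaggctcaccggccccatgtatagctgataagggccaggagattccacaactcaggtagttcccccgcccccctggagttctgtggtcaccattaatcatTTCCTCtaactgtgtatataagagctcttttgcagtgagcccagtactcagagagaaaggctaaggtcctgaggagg
The core was present in all 4 windows, once in Csf2ra, Csf3r and Csf2 and in 2 places in Csf1r, and it was present in 23.3% of all 33465 promoter windows of that length. In Csf2ra it lay 41 to 36 bases before the start, and in Csf3r 160 to 155 bases before it. In Csf1r both copies were on the opposite strand, at 229 to 224 and 95 to 90 bases before the start. The AP-1 motif TGANTCA and the TATA motif TATAAA were in none of the 4 windows, against 6.34% and 12.9% of all windows. The NF-kappaB motif (GGG and CC with 5 bases between them) was in those of Csf2, Csf2ra and Csf3r (42.3% of all windows), and the C/EBP motif TTNNGNAA in all 4 (37.2%). All motifs were searched on both strands, and in Csf2ra the C/EBP match overlapped an NF-kappaB match. A match is a description of letters and not of binding.

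Library totals ran from 38401951 to 42225086 counts. The labels give 5 batch numbers, 3 in the conduit and 2 in the untreated group, and no batch holds both groups, so batch and treatment cannot be told apart. Schwann cell markers were abundant in all libraries, as the labelled tissue would have, and of 10 such markers 9 were higher in conduit nerves. Their summed CPM was 158600 to 206400 in the conduit libraries and 11550 to 26820 in the untreated libraries, so the make-up of the RNA differed widely between the groups. Summed muscle markers were 3.56 to 9.17 CPM in the conduit libraries and 11530, 84.1 and 8.95 CPM in untreated replicates 1, 2 and 3. Summed adipocyte markers were 643, 737 and 2186 CPM in conduit replicates 1, 2 and 3 and 427, 660 and 934 CPM in the untreated libraries. CPM is the usual count-per-million unit, taken over the library total of tested genes after scaling by TMM (trimmed mean of M-values), and group values are mean ± SD of 3 libraries. The TMM factors were 0.8523 to 0.9045 in the conduit and 1.117 to 1.183 in the untreated libraries, so values between groups rest on this scaling. Of 15464 genes tested with edgeR's quasi-likelihood test, 50.2% passed a Benjamini-Hochberg adjusted p of 0.05. Of all genes tested 26.2% were called lower and 24.0% higher in conduit nerves.

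Of the 8 members 6 passed the filter on low counts, and 5 of these were lower in conduit nerves, namely Csf1 and all 4 receptor genes (26.2% of all tested genes were lower). None was called higher by edgeR, DESeq2 or limma, and 0 were higher at an unadjusted edgeR p under 0.05. The sixth, Il34, did not pass the test. Csf3r had the lowest fold change, 22.0-fold lower in conduit nerves, followed by Csf2ra at 5.91-fold, Csf1r at 4.43-fold, Csf2rb at 3.44-fold and Csf1 at 2.48-fold. The CPM of the groups did not overlap in any of the 6, which was also true of 61.7% of all tested genes. The tested members had a median log2 fold change of -1.97, beside -0.04 for all tested genes. In bulk tissue, fewer cells of a type and less RNA per cell cannot be told apart in any of these values.

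**Figure D1:**
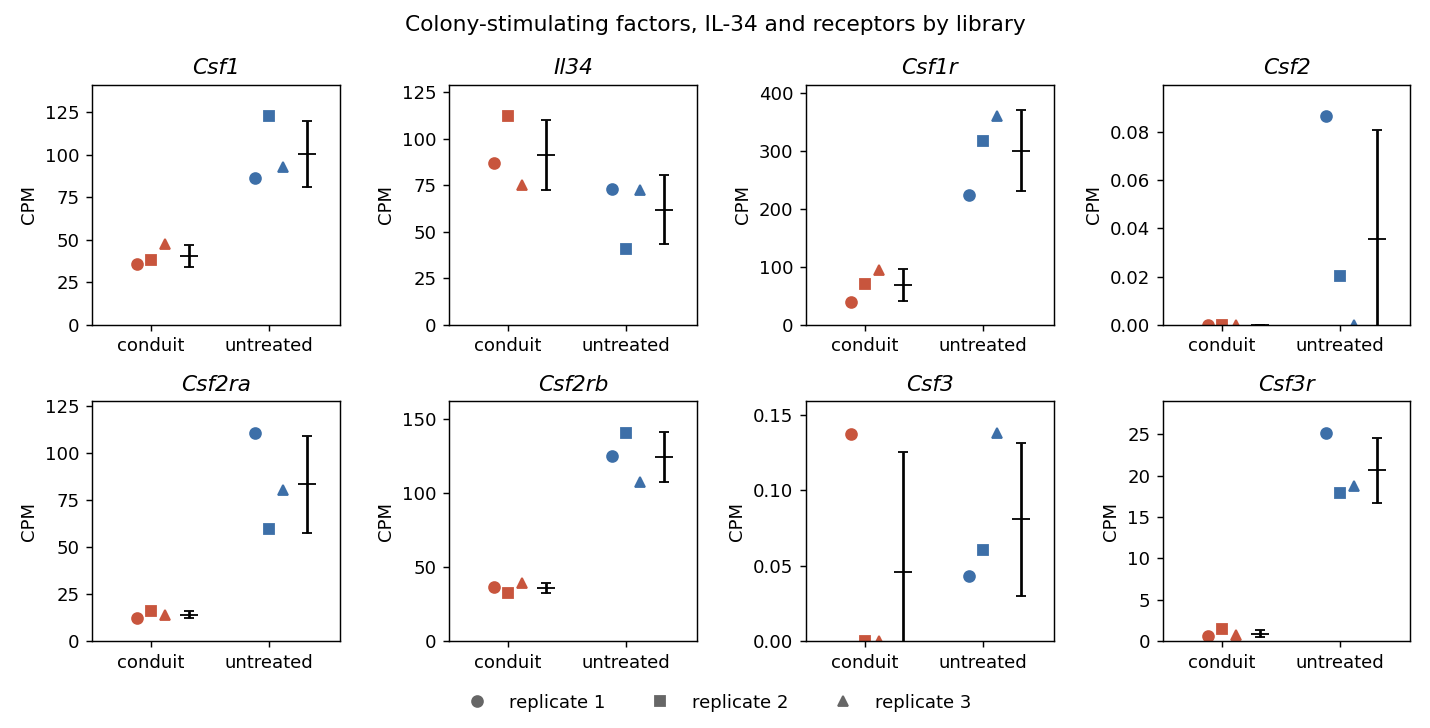
CPM of the 8 members in each library, conduit left and untreated right, with the mean and SD of 3 libraries as a bar beside the points; each panel has its own axis starting at 0. Csf1 and the 4 receptors sit lower in every conduit library than in any untreated one, Il34 sits higher, and Csf2 and Csf3 stay under 0.14 CPM.

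Csf1, the main growth factor of macrophages, was at 35.5, 38.3 and 47.6 CPM in the conduit libraries and 86.1, 122.5 and 92.5 CPM in the untreated libraries. The groups were well apart, and untreated replicate 2 stood highest. The log2 fold change was -1.31 ± 0.18 (SE), with an adjusted p of 0.00102 from edgeR. Without untreated replicate 2 it was -1.14.

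Il34, the second ligand of CSF1R, known from keratinocytes and neurons as its main sources, was at 86.7, 112 and 74.9 CPM in the conduit libraries and 72.8, 40.5 and 72.2 CPM in the untreated libraries. Conduit replicate 3 lay just above the highest untreated library, and untreated replicate 2 stood lowest. The log2 fold change was 0.56 ± 0.26 (SE, 95% interval -0.04 to 1.16), and edgeR's adjusted p was 0.106. The interval takes in both no difference and a more than 2-fold rise. In FPKM (counts per gene length, relative to the library total without TMM scaling), Il34 was at 12.2, 15.4 and 10.9 in the conduit libraries and 13.1, 7.74 and 13.2 in the untreated libraries, and there the groups overlapped. With scaling by library totals the log2 fold change was 0.18, since this scaling moves the median of all genes by -0.386.

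The balance between the ligands of CSF1R does not depend on the scaling of a library, since both are read in the same library. Il34 made up 64.7%, 68.7% and 54.2% of the Csf1 plus Il34 FPKM in the conduit libraries and 38.9%, 19.9% and 37.0% in the untreated libraries. By FPKM, Il34 was thus the larger of the pair in each conduit library and Csf1 in each untreated library. Which of them is larger rests on the gene lengths behind FPKM, which imply 6188 bases for Il34 and 4652 for Csf1. Raw counts had the same order in each library, closest in untreated replicate 1 (3364 for Il34 and 3979 for Csf1). The mean share was 62.6% ± 7.53 in conduit nerves and 31.9% ± 10.4 in untreated nerves, a difference of 30.6 percentage points (exact permutation test, two-sided, p = 0.1, the smallest that 3 against 3 libraries allow). Leaving out 1 library at a time gave 24.6 to 34.8 points. The summed FPKM of both ligands was 20.5 ± 1.85 with the conduit and 36.1 ± 2.58 without treatment (SD over 3 libraries each, exact permutation p = 0.1).

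**Figure D2:**
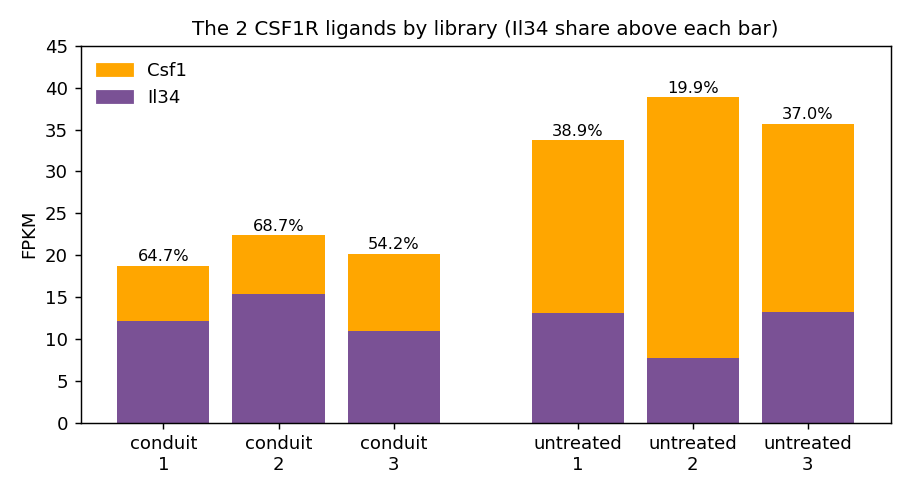
FPKM of Il34 (bottom, purple) and Csf1 (top, orange) in each library, stacked, with the Il34 share of the sum printed above each bar. The share is 54.2% to 68.7% in the conduit libraries and 19.9% to 38.9% in the untreated libraries, and the whole bar is lower in the conduit libraries.

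Csf2, the ligand of the GM-CSF receptor, had no count in any conduit library and 4, 1 and 0 counts in untreated replicates 1, 2 and 3. A count of 0 allows up to 3 counts, which is 0.0786 to 0.0848 CPM in the conduit libraries. Csf3, the ligand of CSF3R, had 5, 0 and 0 counts in conduit replicates 1, 2 and 3 and 2, 3 and 6 counts in the untreated libraries. Conduit replicate 1 was thus within the range of the untreated libraries, and the 0 counts of the other conduit libraries allow up to 3 counts each. Both genes failed the low-count filter. In the fit without that filter edgeR gave an adjusted p of 0.214 for Csf2 and 0.669 for Csf3, so a difference in either was not detectable at this depth. These limits and counts cover counting error only.

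Csf1r, the receptor for CSF1 and IL-34, was at 39.4, 69.8 and 94.6 CPM in the conduit libraries and 225, 317.5 and 360.1 CPM in the untreated libraries. The highest conduit library remained well below the lowest untreated one. Spread was wide within the conduit group, where replicate 3 was 2.40 times replicate 1. The log2 fold change was -2.15 ± 0.34 (SE, edgeR adjusted p = 0.00173), and it ran from -2.58 to -1.86 under the alternatives.

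Csf2ra, the alpha chain that gives the GM-CSF receptor its specificity, was at 12.5, 16.2 and 13.7 CPM in the conduit libraries and 110.6, 59.5 and 80.1 CPM in the untreated libraries. The conduit libraries were close together, and the untreated ones spread over 1.86-fold with replicate 1 on top. Its log2 fold change was -2.56 ± 0.24 (SE, edgeR adjusted p = 0.000205). Csf2rb, the beta common chain, was at 36.4, 32.6 and 39.3 CPM in the conduit libraries and 125.0, 140.5 and 107 CPM in the untreated libraries. It was the member with the least spread within groups, up to 1.21-fold in conduit and 1.31-fold in untreated nerves. Its log2 fold change was -1.78 ± 0.15 (SE, edgeR adjusted p = 0.000136). In FPKM the alpha chain was 0.915 to 1.33 times the beta chain in the conduit libraries and 1.13 to 2.36 times in the untreated libraries. These ratios overlapped, with a log2 difference of -0.75 that ran from -1.06 to -0.53 with single libraries left out (exact permutation p = 0.2, where 3 against 3 libraries allow no p below 0.1).

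Csf3r, the G-CSF receptor of neutrophils and some monocytes, was at 0.577, 1.47 and 0.760 CPM in the conduit libraries and 25.2, 17.9 and 18.8 CPM in the untreated libraries. The conduit values rest on 21, 52 and 29 counts, against 1163, 889 and 816 counts in the untreated libraries. The log2 fold change was -4.46 ± 0.37 (SE, edgeR adjusted p = 0.000141), and only 1.16% of tested genes had a lower one. Relative to Csf1r in the same library, Csf3r FPKM was 0.00837 to 0.0220 in the conduit libraries and 0.0544 to 0.117 in the untreated libraries, with no overlap. The log2 difference of that ratio was -2.35 (exact permutation p = 0.1, the smallest possible), and it ran from -2.67 to -1.98 with single libraries left out.

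**Figure D3:**
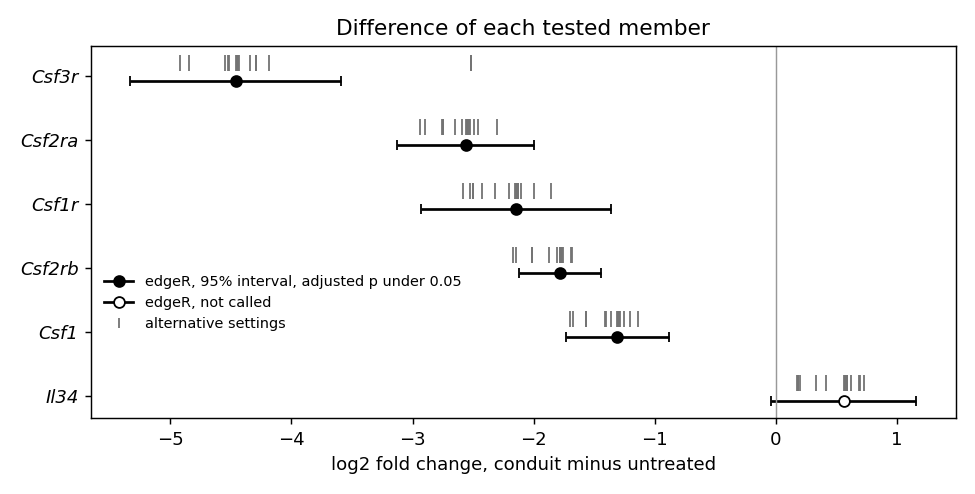
Log2 fold change (conduit minus untreated) of the 6 tested members, with its 95% interval as a horizontal bar; filled points passed an adjusted p of 0.05, and grey ticks above each are the values under the alternative settings. Csf1 and the 4 receptors stay below 0 under every setting drawn, Csf3r has its value nearest to 0 (-2.52) with FPKM and a pseudocount of 1, and the interval of Il34 crosses 0.

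Ordered by FPKM, which corrects for gene length, the mean levels in conduit nerves were Csf1r 14.5, Il34 12.8, Csf1 7.63, Csf2ra 7.24, Csf2rb 6.96 and Csf3r 0.206 FPKM. Csf1r and Il34 overlapped in their library values there, and so did Csf1 with Csf2ra and Csf2ra with Csf2rb. In untreated nerves the mean levels were Csf1r 83.5, Csf2ra 55.6, Csf2rb 31.3, Csf1 24.8, Il34 11.4 and Csf3r 5.94 FPKM. Csf1r overlapped with Csf2ra there, and Csf2rb with Csf1. Csf2 and Csf3 were last in both groups, at 0 and 0.0147 FPKM in conduit nerves and 0.0910 and 0.0340 FPKM in untreated nerves. Il34 FPKM was 0.527 to 1.46 times Csf1r FPKM in the conduit libraries and 0.0850 to 0.216 times in the untreated libraries, without overlap (log2 difference 2.80, exact permutation p = 0.1). The same ratio for Csf1 was 0.446 to 0.798 in the conduit libraries and 0.228 to 0.342 in the untreated libraries (log2 difference 0.90, exact permutation p = 0.1). Both ratios were thus higher in each conduit library, though Csf1 itself was lower there. Only 7.18% of tested genes had a lower log2 fold change than Csf1r. A higher ratio to Csf1r would therefore be found for most genes and is no result about the ligands.

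Macrophage markers were lower with the receptors. Of 18 markers 17 fell and 0 rose (26.2% of all tested genes were called lower and 24.0% higher), with a median log2 fold change of -2.93. Their summed CPM was 562, 778 and 997 in conduit replicates 1, 2 and 3, against 4215, 3473 and 4215 in untreated replicates 1, 2 and 3. Lyz2, lysozyme, and Mrc1, the mannose receptor, had the highest mean CPM over all 6 libraries, though Mrc1 was not second within either group, and their log2 fold changes were -2.42 and -3.04. The marker that did not fall was Mertk, a phagocytic receptor also made by other cells, at 65.0 ± 5.44 CPM in conduit nerves and 43.2 ± 14.1 CPM in untreated nerves (log2 fold change 0.59 ± 0.23, edgeR adjusted p = 0.0644, DESeq2 adjusted p = 0.0391). It was the 1 marker higher at an unadjusted edgeR p under 0.05. Of the 18 markers 12 had a lower log2 fold change than Csf1r.

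Lyz2 was the largest part of the summed markers in every library, with a mean of 287 CPM in conduit nerves and 1539 CPM in untreated nerves. A ratio to the sum thus leans on Lyz2 and does not show how a receptor compares with the markers as a group. Of the 18 markers, 12 had a lower log2 fold change than Csf1r (-2.15), Lyz2 (-2.42) among them. Relative to the sum, Csf1r overlapped between the groups. Its CPM was 0.0701 to 0.0949 of the summed markers in the conduit libraries and 0.0533 to 0.0914 in the untreated libraries. The log2 difference was 0.17 (exact permutation p = 0.6), from -0.070 to 0.32 with single libraries left out, and its direction turned without untreated replicate 1. Csf2ra was at 0.0137 to 0.0222 of the sum in the conduit libraries and 0.0171 to 0.0262 in the untreated libraries (log2 difference -0.14, exact permutation p = 0.7). Its difference ran from -0.28 to 0.072 and turned without conduit replicate 3 or untreated replicate 1. Csf2rb was at 0.0394 to 0.0647 of the sum in the conduit libraries and 0.0255 to 0.0405 in the untreated libraries, a log2 difference of 0.60 (exact permutation p = 0.2, 0.38 to 0.79 with single libraries left out). With 3 libraries a group, none of these tests can pass a threshold of 0.05, and what part macrophage number had in the lower receptor CPM was not tested.

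Csf3r was lower relative to the summed macrophage markers, without overlap, though that sum leans on Lyz2. It was at 0.000762 to 0.00189 of the summed markers in the conduit libraries and 0.00445 to 0.00597 in the untreated libraries (log2 difference -2.18, exact permutation p = 0.1, the smallest possible). The difference ran from -2.545 to -1.89 with single libraries left out. None of the 18 macrophage markers had a log2 fold change as low as that of Csf3r. Markers of neutrophils, the cells with most CSF3R, were scarce: of 16 markers 9 passed the filter, 3 fell (26.2% of all genes were called lower, a share close to it) and 0 rose (0 higher at an unadjusted edgeR p under 0.05), Ltf had no count in any library, and Cxcr1 had 1 count in all. Their summed CPM was 41.5 to 43.4 in the conduit libraries and 52.3 to 115 in the untreated libraries, of which Lcn2, a lipocalin also made by other cells, gave 27.3 ± 5.82 CPM in conduit nerves and 23.9 ± 7.48 CPM in untreated nerves. Mpo, the myeloperoxidase of neutrophil granules, was at 2.75, 1.95 and 14.1 CPM in conduit replicates 1, 2 and 3 and 0.563, 2.83 and 8.17 CPM in untreated replicates 1, 2 and 3 (log2 fold change 0.70 ± 1.01, edgeR adjusted p = 0.589). The alarmins S100a8 and S100a9 fell, with log2 fold changes of -2.68 and -2.92, as did Cxcr2, a chemokine receptor of neutrophils (-2.37). Relative to the summed neutrophil markers Csf3r was 0.0133 to 0.0343 in the conduit libraries and 0.218 to 0.343 in the untreated libraries (log2 difference -3.69, exact permutation p = 0.1). Lcn2 gave the largest part of that sum in each conduit library and was not called (0.19 ± 0.26, edgeR adjusted p = 0.578), so the ratio there is largely one to Lcn2. The part of neutrophils in the fall of Csf3r was not tested. S100a8 did not pass without conduit replicate 1 (edgeR adjusted p = 0.0528), and Cxcr2 failed when conduit replicate 1 or 2 (0.0649 and 0.0959) or untreated replicate 2 or 3 (0.104 and 0.0585) was omitted, and without conduit replicate 1 only 1 neutrophil marker was called lower.

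**Figure D4:**
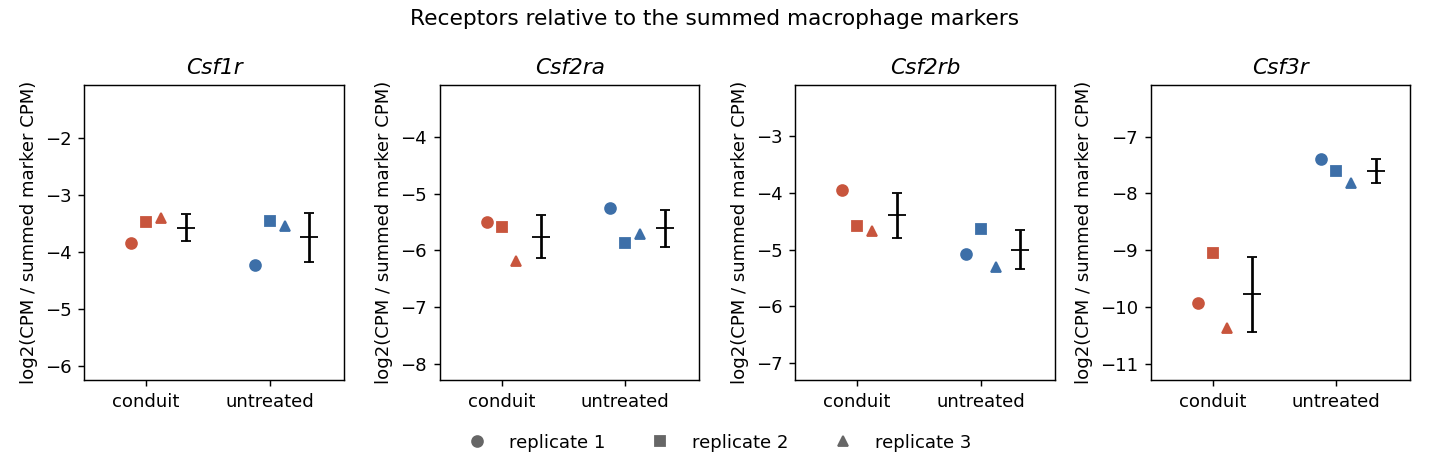
Log2 ratio of each receptor's CPM to the summed CPM of 18 macrophage markers, by library, conduit left and untreated right, with mean and SD of 3 libraries; all 4 axes span the same range of log2 units. Csf1r, Csf2ra and Csf2rb overlap between groups, whereas Csf3r is lower in all 3 conduit libraries.

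Around the receptors, lists of pathway genes were described in the same fit, in which 26.2% of all tested genes were called lower and 24.0% higher. Of 30 adaptors, kinases and phosphatases of CSF1R signalling, 18 fell and 3 rose, with a median log2 fold change of -1.44 beside -0.04 for all tested genes. Among those with the smallest adjusted p were leukocyte proteins: Tyrobp, the DAP12 adaptor (-3.20 ± 0.20), the Src family kinase Fgr (-2.94 ± 0.19), and Inpp5d, the lipid phosphatase SHIP1 (-2.10 ± 0.15). The 3 that rose are widely expressed: Pik3r1, a regulatory subunit of PI 3-kinase (2.18 ± 0.24), Mapk3, which encodes ERK1 (1.30 ± 0.16), and Src (0.56 ± 0.12). Src did not pass with library totals (0.17, edgeR adjusted p = 0.233).

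Of the other ligands and alpha chains that go with the beta common chain, only Il3ra had more than a few counts. Il3 and Il5 had no count in any library, and Il5ra had 4 counts in the conduit and 7 in the untreated group as a whole. Il3ra, the alpha chain for IL-3, was at 13.4 ± 3.28 CPM in conduit nerves and 18.0 ± 5.27 CPM in untreated nerves (log2 fold change -0.43 ± 0.27, edgeR adjusted p = 0.217). It was called lower with library totals (-0.82, edgeR adjusted p = 0.027), without untreated replicate 2 (-0.65, edgeR adjusted p = 0.0471) and with limma on filtered FPKM (-0.72, limma adjusted p = 0.0262, and -0.79, adjusted p = 0.0259, with a pseudocount of 0.1). Of 16 tested genes of beta common and CSF3R signalling 5 fell, a share close to the 26.2% of all genes called lower, so the count is no result about this list. The 5 were Jak1 (-0.72), Tyk2 (-0.82), Stat3 (-0.68), the kinase Pim1 (-1.07) and Socs3, the feedback inhibitor of CSF3R (-2.03 ± 0.21). Another 2 rose (24.0% of all genes were called higher), the survival gene Bcl2l1 (1.18 ± 0.16) and Pim2 (1.30 ± 0.27). Stat5a and Stat5b, through which CSF2 signals, were at 0.04 and -0.25, and Cish, a target of STAT5, at -0.71 ± 0.43, and none of them passed with edgeR after TMM scaling. With library totals 11 genes of this list were lower, Stat5a (-0.35) and Stat5b (-0.63) among them. Both were also called lower by limma on FPKM, filtered or not and at either pseudocount. Cish was called lower by limma with a pseudocount of 0.1 (-1.06, limma adjusted p = 0.048). Jak1 did not pass without conduit replicate 1 or 2 (edgeR adjusted p = 0.0811 and 0.0765).

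Of 19 myeloid transcription factors 10 fell and 2 rose, with a median of -1.13 (26.2% of all tested genes were called lower and 24.0% higher). Spi1, which encodes PU.1, was at 8.24 ± 2.11 CPM in conduit nerves and 66.8 ± 9.07 CPM in untreated nerves (log2 fold change -3.02 ± 0.22, edgeR adjusted p = 0.000102). Irf8 (-3.02 ± 0.25), Runx1 (-2.28 ± 0.20) and Tfec (-3.85 ± 0.25), factors of the monocyte and macrophage lineage, fell as well. The 2 that rose were Maf (0.55 ± 0.13) and Egr2, which also drives myelination in Schwann cells (1.77 ± 0.19). Maf did not pass with library totals (0.16, edgeR adjusted p = 0.308). Cebpe, a factor of granulocyte maturation, was at 0.125 ± 0.105 CPM in conduit nerves and 2.12 ± 0.396 CPM in untreated nerves (-4.04 ± 0.62).

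Among 14 tested genes that induce Csf2 and Csf3 in other settings 10 fell and 1 rose (26.2% of all tested genes were called lower and 24.0% higher). Il17a had no count in any library and Il17f had 1. Il17ra, the receptor of IL-17 (-2.21 ± 0.22), Il1b (-2.55 ± 0.29), its receptor Il1r1 (-1.48 ± 0.20) and Tnfrsf1a, a TNF receptor (-1.14 ± 0.13), had the smallest adjusted p. The 1 that rose was Il23a, a subunit of IL-23 (1.68 ± 0.47), with 0.985 ± 0.235 CPM in conduit and 0.307 ± 0.152 CPM in untreated nerves. Its call was lost when conduit replicate 1 or 3 (edgeR adjusted p = 0.0537 and 0.0664) or untreated replicate 1 or 2 (0.0675 and 0.0582) was omitted. Of the other receptors described for IL-34, Sdc1, the proteoglycan syndecan-1 (-2.17 ± 0.24), and Trem2, a lipid receptor of macrophages (-2.21 ± 0.18), fell. Ptprz1, a receptor phosphatase of glia, was at 21.9 ± 4.09 CPM in conduit nerves and 17.5 ± 6.80 CPM in untreated nerves (0.32 ± 0.31, edgeR adjusted p = 0.413). Of the proteases that shed CSF1 or its receptor from the membrane, Adam17 fell (-0.45 ± 0.10) and Adam10 rose by 1.52 ± 0.21. Adam17 did not pass without conduit replicate 2 or 3 (edgeR adjusted p = 0.0657 and 0.0533).

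**Figure D5:**
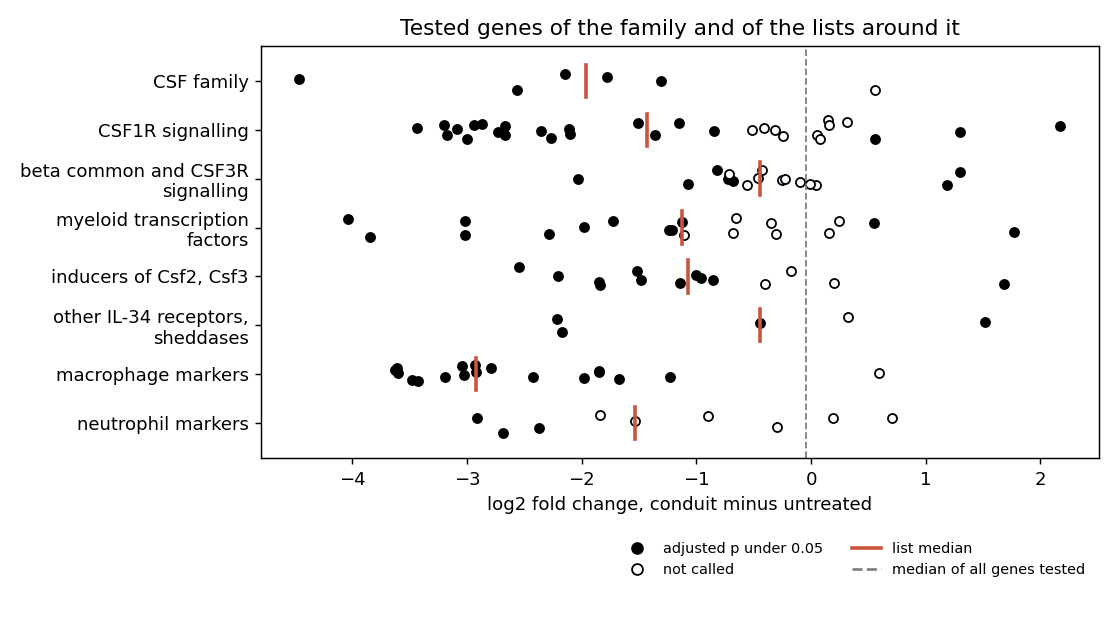
Log2 fold change (conduit minus untreated) of every tested gene in the family and in 7 lists around it, 1 point per gene; filled points passed an adjusted p of 0.05, red bars are list medians and the dashed line is the median of all genes tested. The CSF1R signalling list spreads from -3.44 to 2.18, and Csf3r lies below all points of the macrophage list.

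The genes most like each member were sought among 11339 tested genes with a mean of at least 5 CPM, by the root mean square difference of mean-centred log2 CPM over the 6 libraries. Nearest to Csf1r were Adap2 (0.149), Slc7a8 (0.174), Apbb1ip (0.187) and Emilin2 (0.204). Nearest to Csf1 were Dnmt1 (0.083), Plpp5 (0.0858), Clec14a (0.0869) and Mcm7 (0.0903). Csf2rb was nearest to Npm1 (0.062), Sv2a (0.0793), Mcm4 (0.0801) and Shmt2 (0.104), and Il34 to Copz2 (0.117), Dnajc4 (0.120), Cirbp (0.129) and Bet1l (0.130). Among the members themselves Csf1 and Csf2rb were closest (0.279), and Il34 and Csf3r farthest apart (2.56). A small value requires a like log2 fold change between the groups, as for Csf1 (-1.31) and Dnmt1 (-1.31) or Csf2rb (-1.78) and Npm1 (-1.71). Shared regulation was not tested.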

How the data were processed

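RNA from rat sciatic nerve was extracted with TRIzol and enriched for mRNA before library preparation (VAHTS Universal V10), per the labels' protocols. The deposited files hold raw counts per gene and FPKM values per library, which the authors made before deposit. The submitters' processing notes name fastp, HISAT2, HTSeq, DESeq2 and the mRatBN7.2 build, without versions or roles. Whether strand was used in counting is not given in the sources used here, so reads of overlapping genes may be mixed. For each of 20504 genes detected in 2 or more libraries, the deposited FPKM equalled the count over 1 length and the library total within a relative tolerance of 0.0001.

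Counts of 15464 genes kept by filterByExpr (minimum count 10) were tested with edgeR 4.0.16 (R 4.3.3) by its quasi-likelihood F-test after TMM scaling, group as the only term and Benjamini-Hochberg adjustment over all of them. The fit was tested on simulated counts with a constant dispersion and far fewer changed genes than were called here, so that check does not cover the scaling of these data. Alternatives were DESeq2 1.42.0, RLE or no scaling beyond library totals, other filters (none, or 5 CPM in 3 libraries), robust dispersions, the replicate number as a block, limma 3.58.1 on log2(FPKM + 1) for genes reaching 0.5 FPKM in 3 libraries, that fit unfiltered or with 0.1 as pseudocount, and each library left out. Ratios within a library were compared by exact permutation. The members, gene lists and tests were chosen with earlier results of these data known. Named genes are the members, up to 4 genes per pathway list with the smallest adjusted p, the most abundant genes of the marker lists a result turns on, and the nearest genes by pattern. Other genes, such as those behind a count of 5 or fewer, and the ratios of Csf2ra, Csf2rb and Csf3r to markers and between members, were chosen after the values were seen. Markers of monocytes (7 of 9 tested lower, 1 higher), dendritic cells (6 of 10 lower, 1 higher), T and NK cells (10 of 12 lower), eosinophils and mast cells (2 of 9 lower), osteoclasts (2 lower and 2 higher of 6), fibroblasts (5 higher and 1 lower of 11) and endothelium (4 lower and 1 higher of 10) were also counted. The counts of every list stand beside 26.2% of all tested genes called lower and 24.0% called higher, and a count near those shares is no result about its list. Trac had no matching symbol. Some genes of the lists that the rule would name are not reported here. Of the muscle markers 8 of 8 tested were lower and of the adipocyte markers 3 of 8 were higher. The muscle count does not hold: 0 were lower with the replicate block, robust dispersions, DESeq2, limma or any 1 conduit library left out, 1 with the 5 CPM filter and 4 without untreated replicate 1. With the replicate block 6 adipocyte markers were higher, and without conduit replicate 3 there was 1 lower. The 5 higher fibroblast markers included Slc2a1, Cldn1 and Itgb4, which are not particular to fibroblasts. The others were Col1a1 and Col1a2, whose CPM overlapped between the groups, and the 1 lower was Pdgfra. The count is thus no result about fibroblasts. Fibroblast markers had 3 higher with library totals, limma, or without conduit replicate 2 or 3 or untreated replicate 1 or 2. They had 0 lower without conduit replicate 1 or 2 or untreated replicate 2 or 3, and 2 lower without conduit replicate 3. Osteoclast markers had 0 to 1 higher with library totals, limma, or without conduit replicate 1 or 2 or untreated replicate 1, 0 lower with the 5 CPM filter and 4 lower without conduit replicate 2. With the 5 CPM filter 2 dendritic, 3 T and NK and 1 eosinophil and mast cell markers were lower. The last list also had 1 lower with limma on filtered FPKM, and 1 higher with the block, DESeq2 or without conduit replicate 2. The 1 higher dendritic marker was lost with library totals and limma, and the 1 higher endothelial marker with library totals and unfiltered limma.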

Additional observations from a re-analysis of the deposited data

How the results depend on the processing

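Csf1, Csf1r, Csf2ra, Csf2rb and Csf3r were lower and called in all 16 alternative fits, and Il34 was higher and not called in all 16 (log2 fold change 0.18 to 0.73), so 5 members were lower and 0 higher in each, also without untreated replicate 1, the library with most muscle transcripts. Csf3r was at -2.52 with limma on log2(FPKM + 1), where a pseudocount shrinks low values. Scaling moved the counts over all genes: 2291 were higher and 6554 lower with library totals, against 3711 and 4049 with TMM. With limma on FPKM 2044 were higher, or 2034 with a pseudocount of 0.1, and without its filter 2254 were higher and 6263 lower. The beta common and CSF3R list had 11 genes lower with library totals or FPKM, 12 with a pseudocount of 0.1, 10 without the FPKM filter, and 1 higher with the 5 CPM filter. The transcription factor list had 1 higher with library totals and in the FPKM fits. The inducer list had 0 higher with the 5 CPM filter, where Il23a drops out, and with limma on filtered FPKM at either pseudocount. With single libraries left out it had 0 to 1 higher. The macrophage list had 1 higher, Mertk, with a replicate block, with DESeq2 (adjusted p = 0.0391) and without untreated replicate 2. The neutrophil list had 5 lower with library totals, DESeq2 or limma on filtered FPKM at either pseudocount, and 6 with limma on unfiltered FPKM. Genes not called with TMM turned direction as follows, and the cause was not tested. Stat5a was at -0.35 with library totals, -0.31 with FPKM (filtered or not) and -0.34 with a pseudocount of 0.1, and was called lower in each. Without untreated replicate 2 Stat5a was at -0.030 and not called (up to 0.15 without conduit replicate 3). Ptprz1 was at -0.080 with library totals and -0.018 with FPKM, filtered or not. Lcn2 was at -0.19 with library totals, -0.16 with FPKM at any setting and -0.042 without untreated replicate 2 (up to 0.39 without untreated replicate 1). Deviations from the group means correlated at 0.144, -0.0278 and 0.0636 between samples with the same replicate number. Samples with different numbers gave -0.147 to 0.103. With 3 libraries a group, these values cannot decide whether same-numbered samples belong together. With the replicate block Csf1r was at -2.21 and Csf1 at -1.30, and no member's call changed. Mertk was called with the block (adjusted p = 0.0271). Csf2 and Csf3 were too low at this depth for any comparison.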
